A study of Mus musculus with 8 samples.

Results

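The chromatin of the Runx1 locus was described in sorted mouse blood progenitors by ATAC-seq, in which the Tn5 transposase cuts accessible DNA. The locus was taken as all peaks overlapping chromosome 16 from 92590000 to 92840000 (mm9), a window of 250 kb that holds Runx1 on the minus strand from about 92601700 to 92826400. It held 40 of the 134473 peaks of the series. The window was set by position, with earlier results of these data known. The 8 libraries came from MPP2 cells of C57BL/6 mice, sorted from bone marrow at 8 to 12 weeks of age with 500 cells a library. MPP2 cells are multipotent progenitors that lean toward platelets and red cells. All were LSK cells (lineage-negative, Sca1-positive and Kit-positive) sorted as Flt3-, CD150+ and CD48+, and all were Gata1+. They formed the Vwf+Gata1+ group and the Vwf-Gata1+ group, 4 libraries each, named the Vwf+ and Vwf- libraries hereafter. The labels do not say how Vwf and Gata1 were detected, whether animals were pooled, or whether each replicate is its own animal. The p-values therefore reflect only how these libraries vary, and some of that variation may be technical. Peaks were not assigned to other genes here, so the sort markers were not checked.

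Runx1 is the DNA-binding part of core binding factor, which works together with Cbfb. Runx1 is needed for the first blood stem cells to form in the embryo and, in the adult, for normal platelet and lymphoid development. It is transcribed from a distal promoter, P1, and a proximal promoter, P2, and the resulting proteins differ at their amino terminus. An intronic enhancer about 23 kb from the P1 start codon is active in blood stem and progenitor cells.

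Both promoters are shown because they are the fixed points of the locus. The 250 bases before each RefSeq start on the minus strand of GRCm38.p6 are printed 5′ to 3′, with CG dinucleotides in capitals. P1 lies at chr16:92826075-92826324 and P2 at chr16:92697330-92697579 in that build, whose positions are not those of mm9.
Runx1 P1: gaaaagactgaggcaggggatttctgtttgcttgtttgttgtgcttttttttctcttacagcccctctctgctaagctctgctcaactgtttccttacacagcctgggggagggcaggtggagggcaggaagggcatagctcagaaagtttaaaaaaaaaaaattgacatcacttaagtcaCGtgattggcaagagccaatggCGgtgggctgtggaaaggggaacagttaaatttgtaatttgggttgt
Runx1 P2: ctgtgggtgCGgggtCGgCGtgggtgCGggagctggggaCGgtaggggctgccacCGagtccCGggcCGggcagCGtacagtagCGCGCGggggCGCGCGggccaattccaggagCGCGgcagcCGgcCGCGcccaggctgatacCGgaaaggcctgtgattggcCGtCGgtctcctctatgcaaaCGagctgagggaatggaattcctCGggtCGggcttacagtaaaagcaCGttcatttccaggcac

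The P1 stretch held 2 CG dinucleotides and 45.6% G and C, and the P2 stretch 27 and 67.6%. Over the 32851 promoters of the table the medians were 6.0 and 52.4%. The RUNX core TGTGGT, the GATA core GATAA, the ETS core GGAAGT and the E-box CANNTG were searched on both strands, over the 250 bases before each start and the 50 after it. Counted from the start, P1 held the E-box CAACTG from position -167, the E-box CAGGTG from position -136 and the E-box CACGTG from position -71, and 72.3% of promoters hold an E-box. P1 also held the RUNX core on the opposite strand in 2 places just after its start, a match found in 16.8% of promoters. These are bases 25 to 46 after the start, with the cores in capitals: aacaACCACAgaACCACAagtt. No GATA core (25.4% of promoters) or ETS core (23.8%) was in either stretch, and P2 held none of the 4 motifs. A match is a description of letters and not a binding site, and no match says only that these letters are not in this window.

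The window was rich in accessible sites. Of the 8721 windows of the same length and grid that held a peak, 93.4% held fewer than its 40, and the median was 12.0. The peaks covered 9.08% of the window and took 0.042% of all counts. Total counts in peaks ran from 4628997 to 7753538 a library, of which 2041 to 3313 fell in the window. Signal is given as CPM, counts scaled to library size, after TMM scaling, and as CPM per kb of peak where peaks are compared with each other. The median member had 8.77 CPM per kb against 6.73 for all peaks. The signal was uneven. The 6 peaks with the highest mean CPM, not ranked per kb, covered 32.0% of the members' length and held 62.2% of their counts. Over the 8 libraries this share of counts ran from 56.8% to 66.8%.

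**Figure D1:**
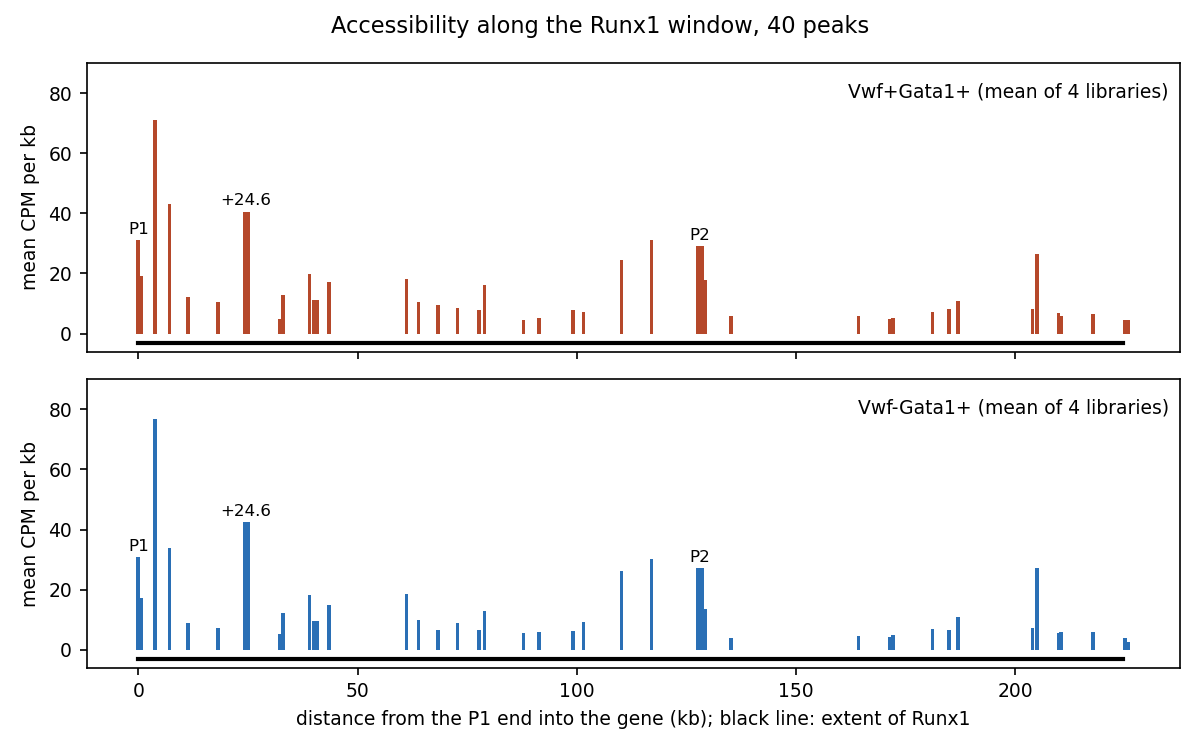
Mean signal per kb (CPM per kb, y axis) of the 40 peaks by distance from the P1 end into the gene (kb, x axis), Vwf+Gata1+ above and Vwf-Gata1+ below, 4 libraries each; narrow peaks are drawn wider than they are. The tallest bar in both groups is 3.8 kb into the gene, and a stretch with no peak lies between 135.2 and 164.3 kb.

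At the P1 end lay a peak of 913 bp (92825903 to 92826815), centred within 0.1 kb of it. Its signal was 24.8, 27.6, 36.2 and 25.02 CPM in replicates 1 to 4 of the Vwf+ group and 27.3, 25.98, 33.7 and 25.7 CPM in those of the Vwf- group. The groups overlapped throughout, and the third replicate was the highest in both. The fold difference was 0.998, with a 95% interval of 0.849 to 1.17 (edgeR adjusted p = 0.999), and its direction flipped with RLE scaling. In bulk libraries, fewer cells with an open site and less opening in each cell cannot be told apart. A smaller peak just inside the gene (92825478 to 92825855, 0.7 kb) had 7.19 ± 1.51 CPM in Vwf+ libraries and 6.46 ± 1.31 CPM in Vwf- libraries (± SD over 4 libraries; edgeR adjusted p = 0.926).

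P2 was placed by its distance from P1, since no annotation of mm9 was used. The starts of both promoters are 128.7 kb apart in GRCm38.p6, and in mm9 that distance from the P1 end falls inside the widest member, a peak of 1869 bp (92697378 to 92699246). It was wider than 99.1% of all peaks and stronger than 97.8% of them, but per kb than 93.4%. Its signal was 55.6, 52.7, 52.5 and 56.6 CPM in Vwf+ libraries and 52.3, 51.05, 50.7 and 49.6 CPM in Vwf- libraries. After TMM scaling each Vwf+ library lay above each Vwf- library, by a narrow margin (52.5 against 52.3 CPM at the closest). With total count scaling the groups overlapped. The fold difference was 1.07 (95% interval 0.950 to 1.204; log2 0.10 ± 0.08, SE), which did not pass the test (edgeR adjusted p = 0.891). This peak varied least of the members, 1.14-fold from the lowest to the highest library, against 1.46-fold at P1. A narrow peak beside it (92696893 to 92697293), 129.3 kb into the gene, had 10.4, 6.76, 6.19 and 5.18 CPM against 7.45, 3.84, 4.49 and 6.13 CPM. It was highest in replicate 1 of both groups, and its groups overlapped (log2 0.38 ± 0.22; edgeR adjusted p = 0.803). That value was 0.10 without replicate 1 of the Vwf+ group and 0.58 without replicate 1 of the Vwf- group.

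The balance of the promoters was compared as the ratio of the P1 peak to the P2 peak in each library, which does not depend on scaling. It was 0.446, 0.523, 0.690 and 0.442 in Vwf+ libraries and 0.523, 0.509, 0.665 and 0.518 in Vwf- libraries. The mean log2 ratio was -0.95 ± 0.30 and -0.86 ± 0.18 (± SD over 4 libraries), a difference of -0.09 that was smaller than the spread (2-sided exact permutation p = 0.629). With 4 libraries against 4, p cannot go below 0.0286. The P2 peak is the wider, at 1869 bp against 913 bp, and per kb P1 was the higher in 6 of 8 libraries.

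The strongest member was neither promoter but a peak 3.8 kb into the gene (92822065 to 92823140), in the long stretch between P1 and P2. Its signal was 64.3, 76.9, 89.2 and 75.2 CPM in Vwf+ libraries and 72.5, 79.7, 95.4 and 82.3 CPM in Vwf- libraries. It was stronger than 99.4% of all peaks, and per kb than 99.9% of them. Per kb it stood first of the 40 in 8 of 8 libraries. The groups overlapped, and the fold difference was 0.924 (95% interval 0.810 to 1.05; edgeR adjusted p = 0.877).

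The zone of the +23 enhancer, 21 to 25 kb from the P1 end, held 1 peak, 24.6 kb into the gene (92801006 to 92802509, 1504 bp). Whether it is that enhancer was not tested, since the enhancer's position in mm9 was not used here. Its signal was 56.2, 66.6, 61.7 and 59.8 CPM in Vwf+ libraries and 57.4, 61.3, 69.8 and 66.4 CPM in Vwf- libraries, with overlapping groups. The fold difference was 0.958 (95% interval 0.848 to 1.08; edgeR adjusted p = 0.947). With its interval within 1.2-fold, this was among the most closely bounded members.

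Ranked by signal per kb over the 8 libraries, the peak at 3.8 kb led with 73.8 ± 9.01 CPM per kb (SD, n = 8). The peaks at 24.6 kb (41.5 ± 3.18) and 7.1 kb (38.5 ± 7.64) followed, and the first of these was the higher in 6 of 8 libraries. P1 came next with 31.0 ± 4.71, then a peak 117.1 kb into the gene with 30.6 ± 3.96. P1 was the higher of these in 3 of 8 libraries, so their order is within the spread. P2 had 28.2 ± 1.28, the peak at 205.0 kb 26.8 ± 3.07 and the peak at 110.2 kb 25.3 ± 2.45. The peak at 117.1 kb was higher than P2 in 6 of 8 libraries, P2 higher than the peak at 205.0 kb in 5 and that peak higher than the one at 110.2 kb in 6.

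**Figure D2:**
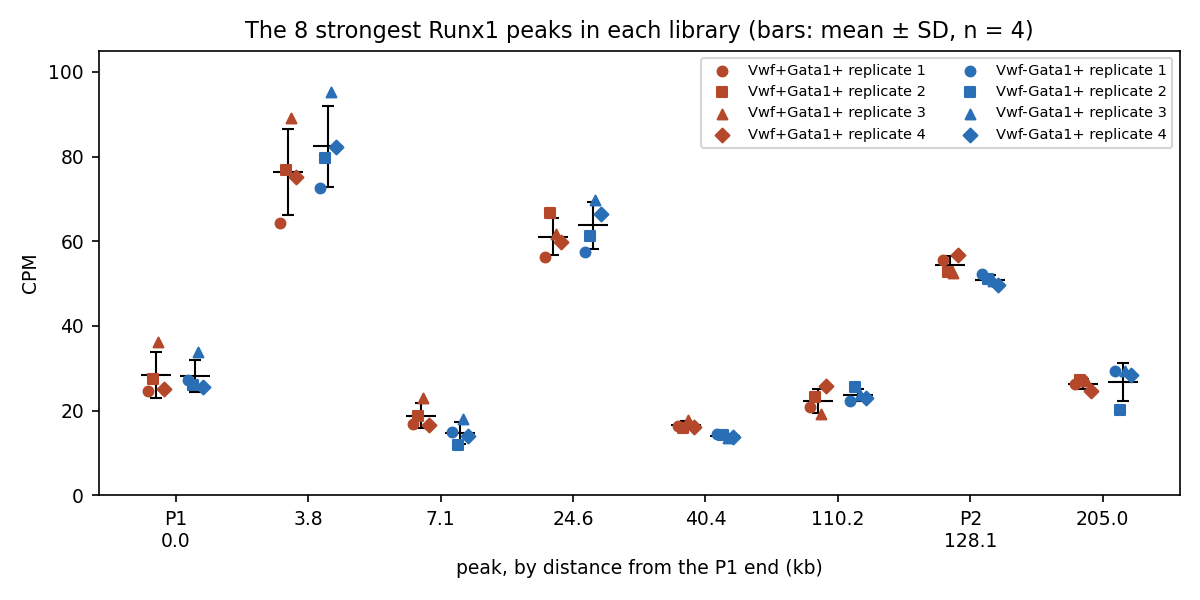
Signal (CPM, y axis) of the 8 members with the highest mean CPM, ordered by distance from the P1 end (kb, x axis); each point is a library, marker shapes give the replicate number, bars are mean ± SD over 4 libraries. At P1 and at 3.8 and 7.1 kb the third replicate is the highest of each group, and at P2 all libraries lie between 49.6 and 56.6 CPM.

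Of the other strong members, the peak at 205.0 kb (92620928 to 92621917), near the far end of the gene, had 26.3 ± 1.13 CPM in Vwf+ libraries and 26.8 ± 4.49 CPM in Vwf- libraries (± SD over 4 libraries; edgeR adjusted p = 0.984). Replicate 2 of the Vwf- group was lowest there with 20.1 CPM. The direction of this small difference flipped when replicate 1 or replicate 3 of the Vwf- group was left out. The peak at 110.2 kb (92715771 to 92716677) had 22.3 ± 2.90 and 23.7 ± 1.36 CPM (edgeR adjusted p = 0.949). The wide peak at 40.4 kb (92785241 to 92786726) had 16.3, 15.95, 17.9 and 16.1 CPM in Vwf+ libraries and 14.5, 14.2, 13.7 and 13.7 CPM in Vwf- libraries. Its groups did not overlap, with a fold difference of 1.18 (95% interval 0.983 to 1.41; edgeR adjusted p = 0.776).

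The comparison between the subpopulations called no peak of the locus. Of the 40 peaks, 36 passed the filter on low counts and were tested in the fit over all 97040 tested peaks. Of these, 0 had an adjusted p under 0.05 by edgeR's quasi-likelihood test, and adjusted p-values ran from 0.646 to 0.9998. Over all tested peaks 0.0144% passed, so a count of 0 is also what the background share gives for 36 peaks. At an unadjusted p under 0.05 there were 3 (8.33%), against 6.72% of all tested peaks. With DESeq2 0 members were called and 2 had such an unadjusted p, against 3.47% of all tested peaks. With limma-voom 0 were called and 3 had one, against 7.49%. After TMM scaling the groups did not overlap at 3 members (8.33%), all higher in Vwf+ libraries, against 3.88% of all tested peaks. These were the P2 peak, where total count scaling made the groups overlap, the peak at 40.4 kb and one at 78.9 kb (92747267 to 92747723). The last was outside the naming rule and chosen after its values were seen. The peak at 117.1 kb, given above for its rank in signal per kb, was outside that rule too. The peak at 78.9 kb had 7.37 ± 0.642 CPM against 5.94 ± 0.385 CPM (± SD over 4 libraries; edgeR adjusted p = 0.807).

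The 3 members with the lowest p lay 7.1, 18.1 and 225.8 kb from the P1 end. The peak at 7.1 kb (92819114 to 92819549) had 16.9, 18.8, 22.9 and 16.5 CPM in Vwf+ libraries and 14.9, 11.99, 18.1 and 14.01 CPM in Vwf- libraries. Only replicate 3 of the Vwf- group reached into the range of the other group, and the log2 fold change was 0.34 ± 0.14 (SE; unadjusted p = 0.0194, edgeR adjusted p = 0.646). The peak at 18.1 kb (92807869 to 92808725) had 7.64, 7.88, 11.2 and 8.91 CPM against 8.36, 6.15, 4.49 and 5.98 CPM. Here replicate 1 of the Vwf- group overlapped, and the log2 fold change was 0.46 ± 0.19 (edgeR adjusted p = 0.650). Beyond the far end of the gene, the peak at 225.8 kb (92600332 to 92600953) had 3.95, 3.0, 2.29 and 1.87 CPM against 3.14, 0.769, 1.17 and 1.17 CPM. It rested on 5 to 30 counts a library, with a log2 value of 0.79 ± 0.36 (edgeR adjusted p = 0.709). With 1 library left out, that value ran from 0.53 without replicate 1 of the Vwf+ group (edgeR adjusted p = 0.785) to 1.44 without replicate 1 of the Vwf- group (edgeR adjusted p = 0.247). Replicate 1 was the highest library of each group there.

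The test bounded the strong sites closely and the weak ones loosely. The 95% interval of the fold difference lay within 1.2-fold at 3 of the 36 tested members (P1 and the peaks at 24.6 and 205.0 kb), within 1.5-fold at 15 and within 2-fold at 29. Over all tested peaks these shares were 6.24%, 41.5% and 85.5%. The P2 interval, 0.950 to 1.204, passed 1.2-fold only just, though its standard error (0.08) was the smallest of the tested members. Tested peaks of the whole table were divided into 3 equal classes by signal. The median standard error of the members on the log2 scale was 0.36, 0.23 and 0.12 in the weak, middle and strong class, close to the 0.33, 0.23 and 0.13 of all tested peaks.

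More members had a positive than a negative fold change, 27 against 9, where 50.7% of all tested peaks were positive. The median log2 fold change of the members was 0.13 and that of all tested peaks 0.004. The members' medians were 0.31, 0.18 and 0.03 in the weak, middle and strong class (13, 11 and 12 members), and those of all tested peaks -0.013, -0.008 and 0.017. Under RLE scaling 28 of 36 were positive and under total count scaling 25. Summed over the window, the signal was 436, 439.7, 467.8 and 436 CPM in Vwf+ libraries and 433, 413, 453 and 421.8 CPM in Vwf- libraries. The groups overlapped, and the mean log2 sum differed by 0.05, about 1 SD (0.049 and 0.057) of either group. No test was run on this sum, the medians or the counts of positive members, which rest on peaks that share libraries.

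**Figure D3:**
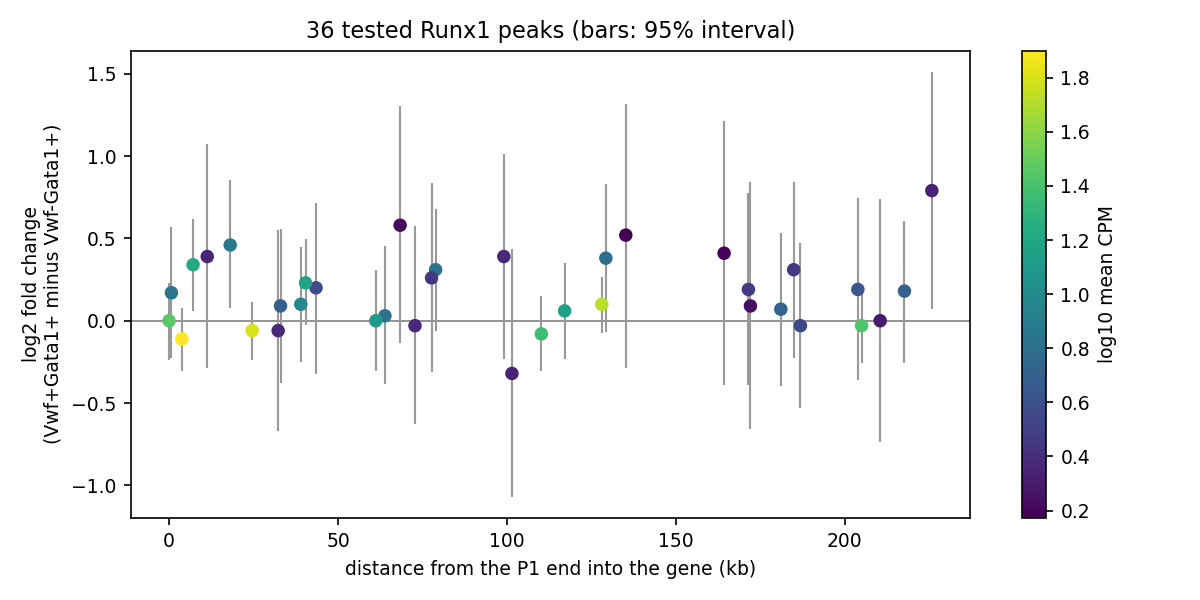
Log2 fold change (Vwf+Gata1+ minus Vwf-Gata1+, y axis) of the 36 tested members by distance from the P1 end (kb, x axis), with 95% intervals as bars and log10 mean CPM as colour. The 6 peaks with the highest mean CPM lie between -0.11 and 0.10 with short bars. The strong peaks at 7.1 and 40.4 kb lie higher, at 0.34 and 0.23. The weak peaks spread from -0.32 to 0.79 with long bars.

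By position, the stretch between P1 and P2 (the +23 zone apart) held 21 peaks and 49.9% ± 1.53 of the window's counts in Vwf+ libraries and 50.1% ± 1.74 in Vwf- libraries (± SD over 4 libraries). The P1 zone, within 1 kb of the end, held 7.98% ± 0.759 and 8.03% ± 0.614, and the +23 zone 13.7% ± 1.003 and 14.8% ± 1.10. The P2 zone, within 3 kb of a point 130 kb from P1, held 13.9% ± 1.09 and 13.1% ± 0.676. The 12 peaks of the gene body after P2 held 13.6% ± 1.10 and 13.3% ± 1.59. In that part, 9 of 11 tested peaks had a positive and 2 a negative fold change, with the lowest edgeR adjusted p at 0.865. Between P1 and P2 the counts were 14 and 5 of 19 tested peaks, and over the whole window 27 and 9. The 2 peaks past the far end of the gene held 0.937% ± 0.209 and 0.649% ± 0.279, and no peak lay further upstream of P1 in the window. None of these shares was tested.

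The 28 members not named by the rule had 1.04 to 14.3 CPM on average. Of these, 24 were tested, 20 with a positive and 4 with a negative fold change (log2 -0.32 to 0.58), and their lowest edgeR adjusted p was 0.807. The 4 members below the filter had 1 to 15 counts a library and 1.04 to 1.57 CPM on average, and were not tested in the main fit. In the fit with no filter all 40 members were tested and 0 were called.

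Libraries with the same number resembled each other at some members. The 4 peaks within 10 kb of the P1 end held 26.3%, 29.3%, 33.1% and 28.7% of the window's counts in replicates 1 to 4 of the Vwf+ group and 28.4%, 29.7%, 33.9% and 30.4% in those of the Vwf- group. Replicate 3 was thus the highest and replicate 1 the lowest in both groups, a pattern noticed in the data. Replicate 3 was the highest library of both groups at 5 of the 36 tested members (13.9%), which included P1 and the peaks at 3.8 and 7.1 kb, against 8.68% of all tested peaks. It had the fewest counts of each group, 4628997 and 5447813, and the part of depth in this was not tested. Replicate 1 was the highest of both groups at 8 members (22.2%), the narrow peaks beside P1 and P2 among them, against 10.2% of all tested peaks. It had the most counts of each group, 7753538 and 7670844. Replicate 2 was the highest of both groups at 3 of the 36 tested members, against 8.34% of all tested peaks. For replicate 4 this held at 0 members, against 4.87%.

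**Figure D4:**
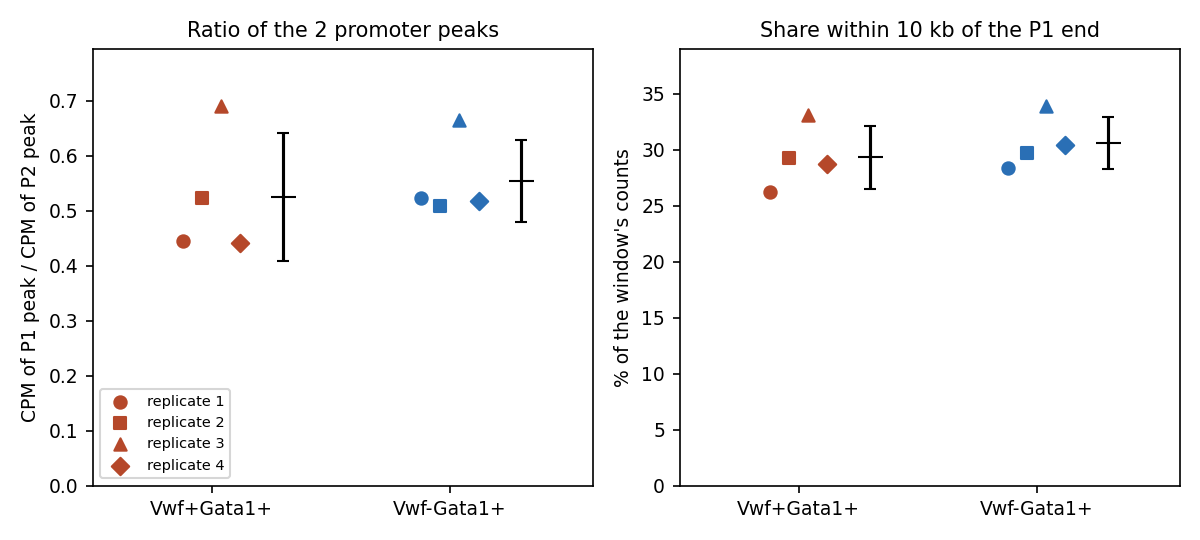
Left, CPM of the P1 peak divided by CPM of the P2 peak in each library (y axis, no unit); right, percent of the window's counts in the 4 peaks within 10 kb of the P1 end; both by group (x axis), markers by replicate number, bars mean ± SD (n = 4). The third replicate is the highest in both groups and both panels, with ratios of 0.690 and 0.665.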

How the data were processed

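Omni-ATAC libraries of 500 sorted cells were deposited by the authors as 1 table of raw counts per peak. The submitters' processing notes name mm9 as the build, and as tools MACS2, Picard, SAMtools, Bowtie2, FastQC and Trim Galore, with no role stated. Read shifting, duplicate handling and peak merging are not given in the sources used here. Peaks were selected by position, and starts are read as 1-based. Distances run from the peak centre to the P1 end. The P2 zone was set at 130 kb from background knowledge.

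Peaks passing edgeR's filterByExpr (minimum count 10, minimum total 15) were scaled by TMM and tested in all 8 libraries with edgeR's quasi-likelihood test (robust, group only), adjusted by Benjamini-Hochberg over all peaks. The standard error was taken as the absolute log2 value divided by the root of F. The script was tested on simulated data. Named were all peaks of the P1, P2 and +23 zones, the 5 others with the highest mean CPM and the 3 with the lowest p. The members and lists were chosen with earlier results of these data known. Alternatives were other scalings and filters, a replicate block, DESeq2, limma-voom and each library left out. Versions were edgeR 4.0.16, DESeq2 1.42.0 and limma 3.58.1 in R 4.3.3, and scipy 1.17.1 and matplotlib 3.10.9 in Python 3.11.15. Promoter sequences are RefSeq's, GRCm38.p6, where both Runx1 starts were found.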

Additional observations from a re-analysis of the deposited data

Results flagged for a closer look

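In 4 of 28 groups of 4 libraries, 1 library stood far from the other 3, with its gap to the nearest given as a share of the group's range. Chance alone gives about 1 such group in 20, and these groups share libraries. The P1 to P2 log2 ratio of replicate 3 of Vwf-Gata1+ cells was -0.59, with -0.94 next (share 0.903). The summed signal of the window in replicate 3 of Vwf+Gata1+ cells was 467.8 CPM, with 439.7 next (share 0.886). At the peak 205.0 kb into the gene, replicate 2 of Vwf-Gata1+ cells had 20.1 CPM, with 28.3 next (share 0.878). At the peak at 225.8 kb, replicate 1 of Vwf-Gata1+ cells had 3.14 CPM, with 1.17 next (share 0.83).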

How the results depend on the processing

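In 17 other fits, 1 of them (without replicate 1 of both groups) chosen after seeing the data, 0 members were called in either direction. Of 204 values of the 12 named peaks in these fits, 0 passed the threshold (lowest adjusted p 0.208, at 7.1 kb with the replicate block) and 12 changed sign, all at P1 or at 205.0 kb. The log2 value at P1 was 0.0015 with RLE scaling, 0.0082 with no filter, 0.00052 with a CPM minimum of 1 in 4 libraries and 0.0054 with DESeq2, and ran from -0.12 to 0.09 with libraries left out (0.05 without replicate 1 of both groups). At 205.0 kb it ran from -0.15 to 0.02. The P1 to P2 difference ran from -0.23 to -0.00041 with libraries left out (exact permutation p 0.229 to 1.0), and the log2 window sum difference from 0.02 to 0.07.

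With the replicate number as a block, 0 members were called, against 375 higher and 136 lower over the whole table (13 and 1 without it). The P1 to P2 difference stayed at -0.09 (exact sign-flip p = 0.5, where 4 pairs allow no less than 0.125). The labels give shared numbers no meaning. Deviations of same-numbered libraries correlated at 0.301, 0.163, 0.074 and 0.0103, and 5 of 8 libraries correlated best with their own number.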
